A study of Mus musculus with 16 samples.

Results

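Th2 cells with a pair of productive TCRα chains were examined among CD4+IL-4eGFP+ cells of lung and mesenteric lymph node (MLN). A cell belonged to this group when it had over 500 UMIs, over 500 detected genes and under 7% mitochondrial UMIs, and when its TCR library held exactly 2 productive TCRα contigs and exactly 1 productive TCRβ contig. These criteria were met by 612 of the 5938 cells that passed the filters, out of 6319 deposited barcodes. They were set against the 3816 cells of the same libraries with exactly 1 productive TCRα and 1 productive TCRβ contig.

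The cells came from 2 IL-4eGFP reporter (4get) mice on the C57BL/6 background, 13 weeks old, which had been infected with 500 larvae of Nippostrongylus brasiliensis (Nb) 10 days earlier and had received antibiotics in the drinking water. The 4get allele marks cells that have switched on Il4 transcription, also early in Th2 differentiation, so that the sort holds cells with little Il4 RNA. All mice carried the reporter and all were infected, so neither can be compared with a control. Lungs were perfused but retained some intravascular cells. They were then digested and purified over Percoll, whereas lymph nodes were mashed without digestion. Organ and tissue processing therefore cannot be told apart in lung against MLN. The 4 libraries are called lung 1, lung 2, MLN 1 and MLN 2 after organ and mouse. Wherever 4 values are listed they follow this order. Cells with 2 TCRα numbered 131, 36, 354 and 91, and cells with 1 TCRα 916, 371, 1928 and 601.

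A T cell assembles its TCR genes by joining V, D and J segments at the TCRβ locus first and V and J segments at the TCRα locus afterwards. Rearrangement of the TCRβ locus is held back on the other allele once a functional chain exists, whereas both TCRα alleles rearrange, and each may do so repeatedly by joining V segments lying further 5′ to J segments lying further 3′. A T cell can therefore carry a pair of in-frame TCRα transcripts beside a single TCRβ, although only 1 of the resulting receptors may have been selected.

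The most abundant such combination (clone 1) had TRBV13-1 and TRBJ2-5 in its TCRβ and was found in 18 cells of mouse 1, 7 from lung and 11 from MLN. Both of its TCRα chains were assembled in 15 of these cells. One TCRα (a) joined TRAV21-DV12 (chr14:53875984-53876752 on GRCm38, the plus strand) to TRAJ48 (chr14:54169808-54169868), and the other (b) joined TRAV6-7-DV9 (chr14:53709902-53710419) to TRAJ34 (chr14:54184699-54184756). The nucleotide sequences encoding CDR3, the loop that contacts peptide, are given because they identify a clone. They are written 5′ to 3′, as deposited, with capitals for the bases that match neither the germline V nor the germline J segment, a stretch that in TCRβ includes the D segment:
clone 1 TCRβ: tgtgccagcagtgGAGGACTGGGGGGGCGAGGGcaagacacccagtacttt
clone 1 TCRα a: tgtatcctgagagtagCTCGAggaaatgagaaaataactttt
clone 1 TCRα b: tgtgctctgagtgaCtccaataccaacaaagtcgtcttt

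Clone 2 had the same TCRβ segments, TRBV13-1 and TRBJ2-5, but another TCRβ junction, with TRAV14N-1 joined to TRAJ37 and TRAV7D-4 joined to TRAJ43. It was found in 8 cells of mouse 1, 3 from lung and 5 from MLN, and 6 of these had both TCRα. Its TCRα a held no base outside the germline V and J segments:
clone 2 TCRβ: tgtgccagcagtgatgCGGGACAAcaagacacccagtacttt
clone 2 TCRα a: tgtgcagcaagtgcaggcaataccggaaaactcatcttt
clone 2 TCRα b: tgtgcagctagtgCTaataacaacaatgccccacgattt

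Clone 3 (TRBV14 and TRBJ2-7) and clone 4 (TRBV13-2 and TRBJ2-4) each had 4 cells, all from MLN of mouse 1. They are shown because the J segments of their TCRα pairs lay beside each other or were the same. Clone 3 used TRAV3D-3 with TRAJ7 and TRAV8D-1 with the neighboring TRAJ6, while clone 4 used TRAV12-3 and TRAV4-3 with the same segment, TRAJ32 (chr14:54186101-54186166):
clone 3 TCRα a: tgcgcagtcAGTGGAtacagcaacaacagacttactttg
clone 3 TCRα b: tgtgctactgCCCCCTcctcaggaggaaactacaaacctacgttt
clone 4 TCRα a: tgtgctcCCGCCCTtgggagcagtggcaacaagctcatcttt
clone 4 TCRα b: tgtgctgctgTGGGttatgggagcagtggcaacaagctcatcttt

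Cells with 2 TCRα were present in every library. Of the cells with at least 1 TCRα and 1 TCRβ, they made up 12.1% (95% exact Clopper-Pearson interval 10.2 to 14.2), 8.65% (6.13 to 11.8), 14.4% (13 to 15.8) and 12.1% (9.83 to 14.6). The share was higher in MLN than in lung of mouse 1 and of mouse 2. With 2 libraries in each organ, an exact permutation test cannot reach the threshold, since its smallest two-sided p is 0.333, and no other test of the share was run. These intervals, and all others on shares of cells, cover counting error only.

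The share was higher in cells with more UMIs of the TCRβ contig. Among cells with 1 TCRβ and 1 or 2 TCRα, the share with 2 TCRα was 8.64%, 4.96%, 9.86% and 7.04% when the TCRβ contig had 1 to 4 UMIs. With 20 or more TCRβ UMIs it was 17.8%, 16.3%, 17.8% and 17.6%. The 4 libraries thus ranged from 4.96 to 9.86% at low and from 16.3 to 17.8% at high capture of the TCRβ. The numbers behind the highest class were 21 of 118, 7 of 43, 126 of 708 and 30 of 170 cells.

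**Figure D1:**
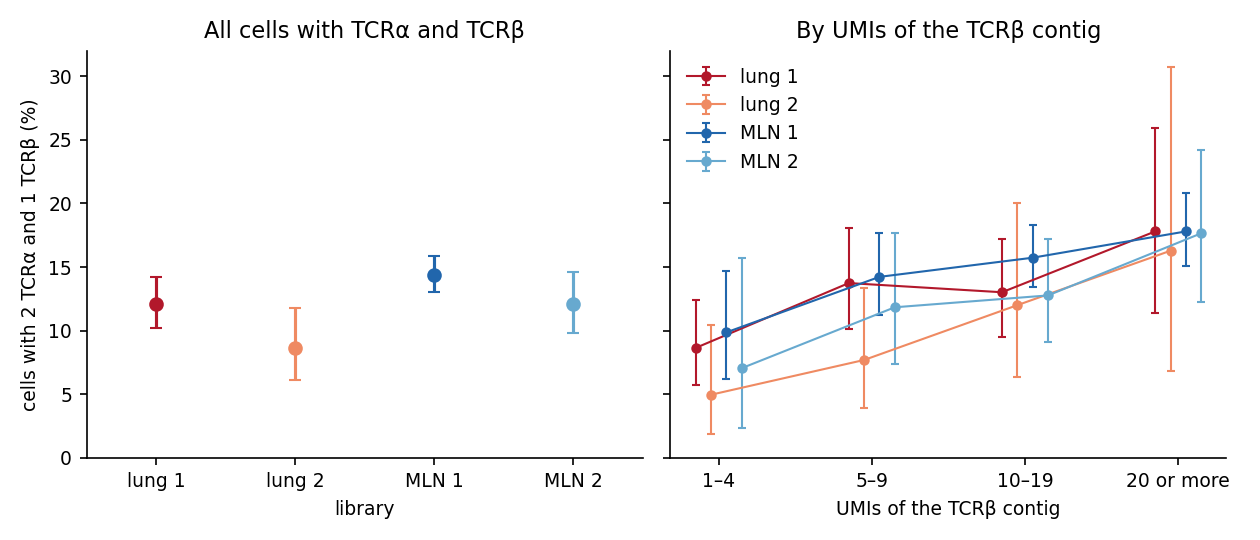
Percentage of cells with 2 TCRα and 1 TCRβ in each library, among all cells with TCRα and TCRβ (left) and among cells with 1 TCRβ and 1 or 2 TCRα by the UMIs of the TCRβ contig (right), with 95% Clopper-Pearson intervals as bars. At 20 or more TCRβ UMIs all 4 libraries lie between 16.3 and 17.8%.

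In a cell with 2 TCRα, the chain with more UMIs is called the first and the other the second. Median UMIs of the first chain were 7, 6.5, 9 and 9, and those of the second chain 4, 3, 5 and 4. The only TCRα of the other cells had a median of 4, 4, 7 and 5 UMIs, so that the second chain was at or below it by 0 to 2 UMIs. The median ratio of the second to the first chain was 0.571, 0.667, 0.6 and 0.5, and no second chain had less than 0.2 of the UMIs of the first or fewer than 2 UMIs. Weaker second chains, if present, were not among the contigs counted here.

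The RNA libraries were searched for the V gene of each contig. At least 1 UMI of the V gene named by the second contig was found in 75.4% of cells, 55.6%, 69.5% and 74.7%, over 130, 36, 354 and 91 cells (1 cell with the same V gene in both chains was left out). For the first chain the shares were 70.0%, 61.1%, 66.9% and 69.2%, and for the only chain of cells with 1 TCRα 69.8%, 65.8%, 68.4% and 74.2%. The 3 kinds of chain thus overlapped, and the second chain differed from the only chain by a mean of -0.75 percentage points (SD 6.71, higher in 3 of 4 libraries, two-sided exact sign-flip permutation test p = 1).

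As a background, the same V genes were looked for in cells of the same library without that V gene among their contigs, which gave 0.956%, 0.827%, 0.837% and 1.01%. Cells were chosen by their contigs, which derive from the same cDNA as the RNA library, so the gap to this background was largely fixed by that choice and is given as a description. Both V genes were detected in 53.1%, 38.9%, 49.2% and 52.7% of cells with 2 TCRα. Median depths were 7463, 6778.5, 5212.5 and 5902 UMIs in cells with 2 TCRα and 6844, 5619, 4839.5 and 4791 UMIs in cells with 1. RNA and TCR libraries of a cell come from the same droplet, so that RNA of another cell caught in the droplet would appear in both. V genes of duplicated groups, such as TRAV7D-4 or TRAV14N-1, have near-identical copies whose reads the counting may split.

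**Figure D2:**
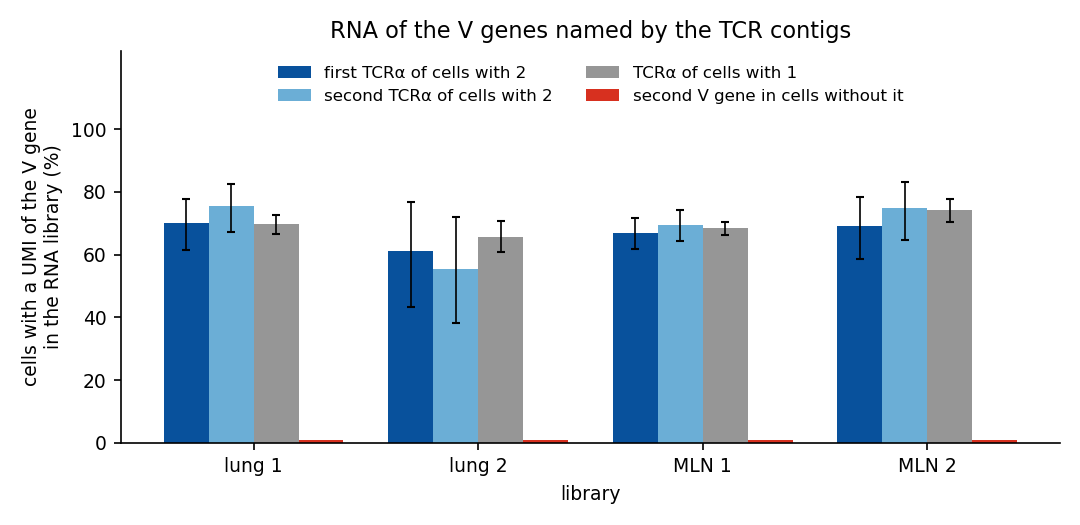
Share of cells (percent, y axis) in whose RNA library the V gene of a contig was seen, per library, for the first and the second TCRα of cells with 2, for the TCRα of cells with 1, and for the second V gene in cells without it in their contigs. Bars start at 0 and error bars are 95% Clopper-Pearson intervals. The second chain lies between 55.6 and 75.4%, the background near 1%.

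The same pair of TCRα recurred in separate droplets. A clone is here a TCRβ of one mouse together with a pair of TCRα, each defined by V segment, J segment and nucleotide CDR3. There were 520 such clones, of which 111 had 2 or more cells carrying the TCRβ and at least 1 of the pair. In 64 clones both TCRα were assembled in at least 2 cells, 157 cells in all. Setting aside 1 cell with both chains per clone, 93 of the 183 other cells held both (50.8%, 95% interval 43.3 to 58.3). This was 52.5% (84 of 160 cells) in mouse 1 and 39.1% (9 of 23 cells) in mouse 2.

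In 19 clones the complete pair was found in both lung and MLN. No TCRβ and TCRα pair was found in both mice. Of the 512 TCRβ of cells with 2 TCRα, 8 occurred with more than 1 pair, and 7 pairs occurred with more than 1 TCRβ. Clone members with both TCRα had a median of 12 TCRβ UMIs (204 cells) and those with only 1 of the pair a median of 9 (89 cells). Counted per clone, the members with only 1 of the pair were 90, since a cell can count for more than 1 pair of its TCRβ.

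Which chain of the pair was the more abundant varied between cells of a clone. Over the 64 clones, the same chain had more UMIs in every cell with both in 32, the order differed between cells in 25 and it was otherwise tied in 7. The log2 ratio of the chains had an SD of 0.89 within clones, against an SD of 0.81 between the means of the clones. In clone 1 the TRAV21-DV12 chain had a median of 6 UMIs (range 3 to 12) and the TRAV6-7-DV9 chain a median of 9 (range 4 to 19), and the latter was higher in 11 of 15 cells. The 3 cells of clone 1 that lacked a chain had 3, 1 and 1 TCRβ UMIs, while the 2 of clone 2 had 9 and 11, the 1 of clone 4 had 15 and the 1 of clone 5 had 3. In clone 3 the TRAV3D-3 chain was higher in 4 of 4 cells, with a median of 11 UMIs against 5.

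**Figure D3:**
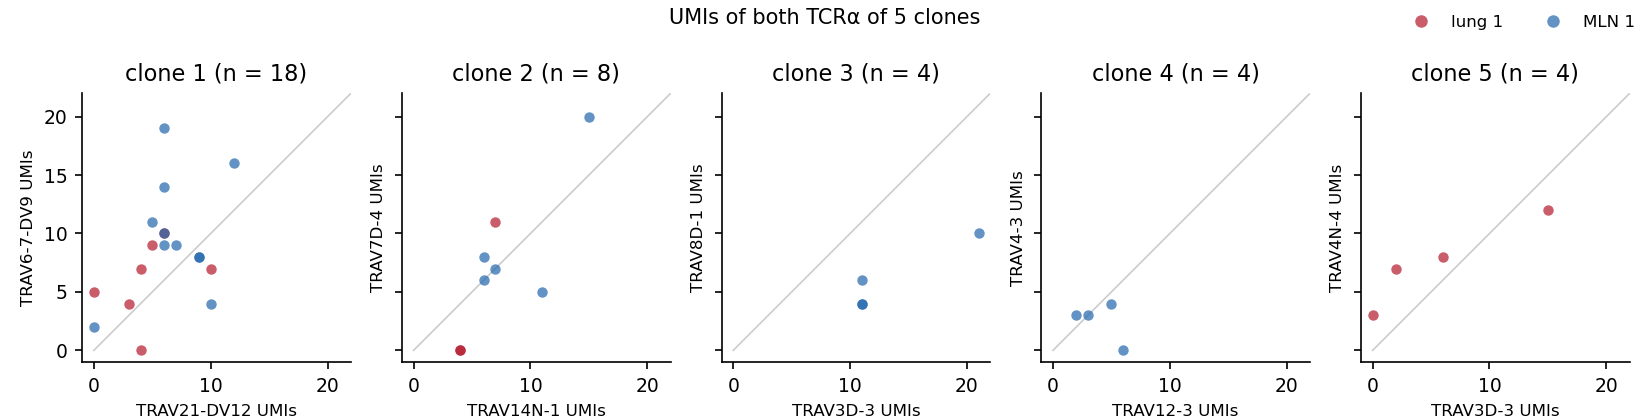
UMIs of both TCRα contigs in each cell of 5 clones of mouse 1, one point per cell, colored by library, with the line of equal UMIs. Clones 3 to 5 have 4 cells each and were taken from the clones of that size by the number of cells with both chains, then by name. In clone 1 most cells lie above the line, in clone 3 all 4 cells lie below it.

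Membership in an expanded clone was judged by the TCRβ alone, since it is 1 chain in both kinds of cell. A TCRβ found in at least 2 cells of the same mouse was carried by 55.0% of cells with 2 TCRα, 38.9%, 36.7% and 34.1%. For cells with 1 TCRα the shares were 49.6%, 34.0%, 39.1% and 28.0%. Cells with 2 TCRα were higher in 3 of 4 libraries, by a mean of 3.51 percentage points (SD 3.96, exact sign-flip permutation test p = 0.25), which is within the spread between libraries. When only cells of the same library counted as clone members, the mean difference was 0.65 percentage points (p = 0.75, exact sign-flip permutation test).

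Single TCRα chains were also seen with other TCRβ of the same mouse. This held for 12.1% of first chains (74 of 612), 8.66% of second chains (53 of 612) and 12.4% of the only chains of cells with 1 TCRα (472 of 3816). Shared TCRα of this kind were therefore not more frequent among second chains, whose 95% interval was 6.55 to 11.2%.

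The TCRα locus lies on chromosome 14, where the annotation for GRCm38 places the V segments between 52427928 and 53977678, 60 J segments between 54155005 and 54218842, and the constant gene Trac at 54220521 to 54224206. J segments were numbered in this order from 1 at the V side to 60 at the Trac side. The J segments of a cell's TCRα pair lay close to each other in this order. Pearson's r between the J positions was 0.74 (131 cells), 0.79 (36 cells), 0.66 (354 cells) and 0.65 (91 cells). With 1 cell per clone it was 0.69 (Spearman's rho 0.69, 520 clones), with a median distance of 6 segments. Points share a library and a mouse, so no p is given.

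When the J segments were divided into 3 blocks of 20 by position (TRAJ61 to TRAJ42, TRAJ41 to TRAJ22, TRAJ21 to TRAJ1), 63.3% of clones had both TCRα in the same block (329 of 520, 95% interval 59.0 to 67.4). Where the first chain used the block nearest the V segments, the second used the same block in 63.5% of clones and the block nearest Trac in 3.85%. Where the first chain used the block nearest Trac, the second used it too in 66.5% and the block nearest the V segments in 3.59%. The same J segment was used by both chains in 33 of 612 cells, the same V segment in 1 and the same CDR3 in 0.

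A second sort of pair gave a like value. Cells with 1 productive TCRα, 1 nonproductive TCRα and 1 TCRβ had an r of 0.69 between the J positions of their chains (800 cells, all clone members counted), with a median distance of 7 segments. Nonproductive TCRα contigs were found in 20.6%, 17.5%, 22.5% and 18.6% of cells with 1 productive TCRα in lung 1, lung 2, MLN 1 and MLN 2.

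Cells with 2 TCRα and 2 TCRβ, which lie outside the group, were looser. Their J positions had an r of 0.22 (76 cells), a median distance of 13 segments and 36.8% of pairs in the same block (28 of 76, 95% interval 26.1 to 48.7). This interval, taken over cells, does not overlap that of the cells with 1 TCRβ, which was taken over clones. Cells with 2 TCRβ had 2 TCRα in 24.2% of 33 cells in lung 1, in 34.2% of 158 in MLN 1 and in 26.4% of 53 in MLN 2. None of the 8 such cells of lung 2 did, for which the exact interval reaches 36.9%. Among cells with 1 TCRβ the share with 2 TCRα was 12.5%, 8.85%, 15.5% and 13.2% in lung 1, lung 2, MLN 1 and MLN 2. The number of multi-cell droplets among cells with 2 TCRα and 1 TCRβ was not tested.

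**Figure D4:**
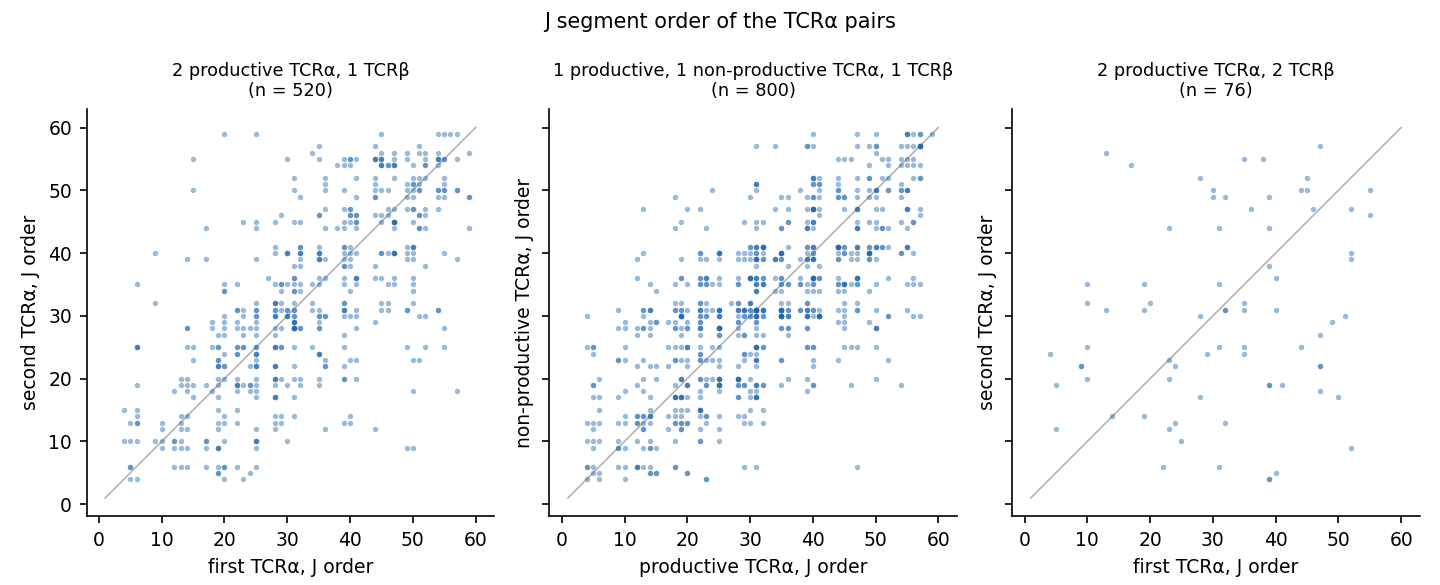
Position of the J segment of the first TCRα (x axis, order 1 to 60 along chromosome 14 from the V side) against that of the second or nonproductive TCRα (y axis), one point per clone in the left panel and one per cell in the others, with the line of equal position. Points gather along the line in the left panel (r 0.69, n = 520) and the middle panel (r 0.69, n = 800), and less so in the right panel (r 0.22, n = 76).

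V segments were less ordered. The start positions of the V segments of a pair had an r of 0.18 over 520 clones, with a median distance of 250827 bases. Within a chain, a J segment nearer Trac went with a V segment nearer the 5′ end of the locus, with an r of -0.40 for first chains, -0.40 for second chains and -0.40 for the only chain of cells with 1 TCRα (520, 520 and 3816 chains). The mean J position of first chains was 2.40 segments nearer Trac than that of only chains (SD 0.975, in 4 of 4 libraries, exact sign-flip permutation test p = 0.13, the smallest possible), with means over all cells of 33.3 and 31.0. For second chains, with a mean of 32.4, the difference was 1.57 segments (SD 1.87, exact sign-flip permutation test p = 0.25).

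The CDR3 of second chains was longer. Its mean length was 41.3, 41.8, 41.4 and 41.5 bases in lung 1, lung 2, MLN 1 and MLN 2, compared with 40.2, 40.8, 40.2 and 40.4 bases for the only chain of cells with 1 TCRα. The difference was 1.12 bases (SD 0.123 between libraries) and had the same sign in 4 of 4 libraries (exact sign-flip permutation test p = 0.13, the smallest possible). For first chains the difference was 0.066 bases (SD 0.213, p = 0.5, exact sign-flip permutation test). The spread between chains was larger than these differences, with an SD of 5.53 bases for second and 4.57 bases for only chains.

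Invariant TCRα chains, formed by TRAV11 and TRAJ18 and typical of NKT cells, were rare among the cells with 2 TCRα. Of 70 cells with such a chain and 1 TCRβ, 3 had a further TCRα, all in MLN 1 (4.29%, 95% interval 0.893 to 12.02), against 13.97% of the 4358 other cells (12.96 to 15.04). The 67 invariant cells with 1 TCRα were spread over lung 1 (3), lung 2 (7), MLN 1 (38) and MLN 2 (19).

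More UMIs were captured from cells with 2 TCRα than from cells with 1. The share with 2 TCRα was itself higher at more TCRβ UMIs. The choice of cells could thus bring higher UMIs by itself, so these values only describe the group. The median UMI number was higher in 4 of 4 libraries, by 1.09, 1.21, 1.08 and 1.23 times in lung 1, lung 2, MLN 1 and MLN 2 (mean log2 ratio 0.20, SD 0.099, exact sign-flip permutation test p = 0.13, the smallest possible). The median number of genes was 2276, 2257.5, 2002.5 and 2117 in cells with 2 TCRα and 2223.5, 2084, 1892 and 1893 in cells with 1. After thinning each cell to 2000 UMIs, which left out 3 cells with 2 TCRα and 77 with 1, the medians were 973, 1001, 1015 and 1007 against 971, 1007, 1010 and 1010 genes. At equal depth the number of genes was thus within 6 genes in each library. Cells with 2 or more TCRβ (35, 8, 179 and 61 cells) had a median of 7274, 7252.5, 7555 and 8048 UMIs.

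The transcript of the TCRα constant gene, Trac, was measured at 2.59, 2.19, 3.89 and 4.06 UMIs per 10000 in cells with 2 TCRα and at 1.88, 2.05, 3.17 and 3.66 in cells with 1 (higher in 4 of 4 libraries, mean difference 0.493, SD 0.277, exact sign-flip permutation test p = 0.13, the smallest possible). Transcripts of the TCRβ constant genes were at 5.32, 6.11, 9.20 and 11.9 against 5.31, 7.08, 8.53 and 12.5 UMIs per 10000, higher in 2 of 4 libraries (p = 0.75, exact sign-flip permutation test). Since the contigs that chose the cells derive from the same cDNA, the Trac values describe the group and support nothing further.

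The label of the cells was checked against marker genes. Cd3d, Cd3e, Cd3g, Cd4 and Lck were detected in the sums of cells with 2 TCRα of all 4 libraries, with a summed level of 3921, 3767, 5369 and 5096 CPM (UMIs per 1000000 UMIs of the sum, here with TCR genes in the total and elsewhere without them) against 3872, 3788, 5217 and 5126 in cells with 1 TCRα. The Th2 genes Il4, Gata3 and Stat6 were also detected throughout and reached 1472, 1211, 631 and 635 CPM against 1310, 1238, 672 and 598. Cd8a was at 0 in cells with 2 TCRα, with Cd8b1 at 14.5, 7.19, 12.2 and 8.06 CPM. Cd79a and Ms4a1 of B cells were at 0 in all 4 sums, although Ighm RNA reached 99.7, 93.5, 240.0 and 254.8 CPM, at a level like that in cells with 1 TCRα (91.5, 128.2, 233.7 and 258.8 CPM).

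RNA of other cell types was also measured. The 9 myeloid markers summed to 182, 259, 145 and 199.97 CPM with 2 TCRα and 190.0, 163, 174 and 224 CPM with 1. Cst3 was the highest of them, except in lung 2 cells with 2 TCRα, where Cd74 was. Exocrine pancreas genes were seen almost only in MLN 2, at 103 and 107 CPM, with Ctrb1 the highest. The γδ T cell genes Trdc, Tcrg-C1, Tcrg-C2 and Tcrg-C4 summed to 4.53, 0, 1.41 and 0 CPM with 2 TCRα and 4.22, 4.12, 12.8 and 9.87 CPM with 1, lower with 2 TCRα in 3 of 4 libraries. The 4 hemoglobin genes were at 0 throughout, and the 5 epithelial markers did not exceed 8.06 CPM with 2 TCRα. The regulatory T cell genes Foxp3, Ikzf2 and Ctla4 summed to 409, 356, 165 and 83.9 CPM against 480, 495, 172 and 150 CPM, lower in 4 of 4 libraries and mostly Ctla4, and Foxp3 was at 0 in the lung 2 and MLN 2 cells with 2 TCRα. Of Cpa3, Mcpt8, Kit and Rora, genes of mast cells, basophils and innate lymphoid cells, Rora alone accounted for 171, 187, 11.2 and 37.1 CPM, and the other genes were at 0 in 3 of the 4 sums. The part of these transcripts in the results below was not tested.

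Gene expression of cells with 2 TCRα was then compared with that of cells with 1 TCRα within each library, to find out whether a second TCRα went with another transcriptional state. UMI counts were summed per library and kind of cell, without TCR genes, and tested with the quasi-likelihood test of edgeR with library as a term. The sums with 2 TCRα held 1100324, 277301, 2122035 and 616530 UMIs, those with 1 TCRα 7096980, 2419301, 10834854 and 3324610. Few genes differed: 8 of 9707 genes (0.0824%) passed an adjusted p of 0.05, 2 higher (0.0206%) and 6 lower (0.0618%) with 2 TCRα, and 362 genes (3.73%) had an unadjusted p below 0.05. The count was not stable. It was 1 with DESeq2, 0 without the library term (62 at an unadjusted p below 0.05), 3 without lung 1, 3 without lung 2, 34 without MLN 1 and 1 without MLN 2.

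Il13, the Th2 cytokine that drives mucus production and airway hyperreactivity, was lower in cells with 2 TCRα in 4 of 4 libraries. It was measured at 213, 100.97, 6.60 and 12.98 CPM in lung 1, lung 2, MLN 1 and MLN 2, against 322, 134, 10.8 and 26.8 CPM with 1 TCRα. Lung values lay above MLN values in both kinds of cell, and within each library the cells with 2 TCRα were the lower. The log2 fold change was -0.62 (SE 0.11, edgeR adjusted p = 0.0128), which was no longer past the threshold without lung 1 (adjusted p = 1), lung 2 (0.0678) or MLN 2 (0.0758), again by edgeR, although the log2 fold change stayed between -0.65 and -0.60 with any 1 library left out.

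Fewer cells with Il13 and less Il13 RNA per cell cannot be told apart in a sum of counts. In lung 1, 22.1% of cells with 2 TCRα and 30.5% of cells with 1 had an Il13 UMI, and 11.5% and 19.3% after thinning to 2000 UMIs. In lung 2 the shares were 27.8% and 18.9% (11.1% and 8.26% thinned), an order opposite to that of the CPM, from 10 and 70 positive cells, so no order was read from them. The sort contained no cell type lacking Il13 that could give a background share. In MLN the Il13 RNA of cells with 2 TCRα came from 4 cells of MLN 1 and 1 cell of MLN 2.

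Hist1h1b, a replication-dependent linker histone expressed in S phase, was the other side of the comparison, at 88.2, 119, 63.6 and 100.6 CPM with 2 TCRα against 31.0, 65.3, 43.0 and 50.2 CPM with 1. It was higher in 4 of 4 libraries, with a log2 fold change of 0.96 (SE 0.13, edgeR adjusted p = 0.00156, and 0.0758 without MLN 2). Only 9, 3, 9 and 5 cells with 2 TCRα had a Hist1h1b UMI, and 1 cell held 33.0%, 51.5%, 60.7% and 45.2% of these UMIs in the 4 libraries. It was the 1 gene that also passed with DESeq2 (adjusted p = 0.00120). By the same edgeR test Hist1h3b, a core histone gene, had a log2 fold change of 0.98 (adjusted p = 0.220), with 98 of its 107 UMIs of MLN 1 in 1 cell. With any 1 library left out, the log2 fold change of Hist1h3b ranged from 0.21 to 1.26.

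Gzmb, a cytotoxic granule protease, was lower at 25.4, 7.21, 42.9 and 4.87 CPM against 69.2, 20.3, 70.3 and 8.72 CPM (log2 fold change -0.98, SE 0.16, edgeR adjusted p = 0.00496). Cd83, an activation marker that stabilizes surface MHC class II, was lower at 14.5, 10.8, 38.6 and 30.8 CPM against 30.9, 23.1, 60.5 and 46.6 CPM (log2 fold change -0.73, SE 0.14, edgeR adjusted p = 0.0493). Both were lower in 4 of 4 libraries. Gzmb came from 5, 1, 5 and 1 cells with 2 TCRα, and its call was lost without lung 1 (adjusted p = 0.314), lung 2 (0.0678) or MLN 2 (0.0758). The call of Cd83 was lost without any 1 of the 4 libraries (adjusted p from 0.126 to 0.323).

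Ccl5, a chemokine of cytotoxic and innate-like T cells, was at 0.909, 0, 12.3 and 1.62 CPM with 2 TCRα against 16.9, 75.2, 20.03 and 39.1 CPM with 1. It passed the threshold with a log2 fold change of -1.97 (SE 0.36, edgeR adjusted p = 0.0248). Without cells carrying the invariant TCRα the log2 fold change was -1.38 and did not pass (edgeR adjusted p = 1). It did not pass without lung 1 (0.0721), lung 2 (0.604) or MLN 2 (0.532) either, and its log2 fold change was -4.92 without MLN 1.

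The last 3 calls rested on few cells or on 1 library. Ccl4, a chemokine, was at 254.5 CPM in lung 1 cells with 2 TCRα and at 0 in their 3 other sums (log2 fold change 4.71, SE 0.71, edgeR adjusted p = 0.00445). Of its 280 UMIs in lung 1, 279 came from 1 cell. Ccl3, a related chemokine, did not pass (log2 fold change 3.87, edgeR adjusted p = 0.263), and its 155 UMIs of lung 1 all came from 1 cell. Cxcl2, a chemokine for neutrophils, was at 78.2 CPM against 263 in lung 1 but at 46.9 against 44.6 in lung 2, and at 0 in both kinds of MLN cells. Its log2 fold change of -1.55 (SE 0.21, edgeR adjusted p = 0.00156) became 0.02 without lung 1. Apoe, a lipid carrier of macrophages, was named after its values were seen because its mean level lay under 20 CPM, and passed with a log2 fold change of -2.93 (SE 0.46, edgeR adjusted p = 0.00496) on 0, 0, 5 and 1 UMIs. It was at 0, 0, 2.36 and 1.62 CPM against 0.845, 0.827, 19.1 and 9.02 CPM.

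**Figure D5:**
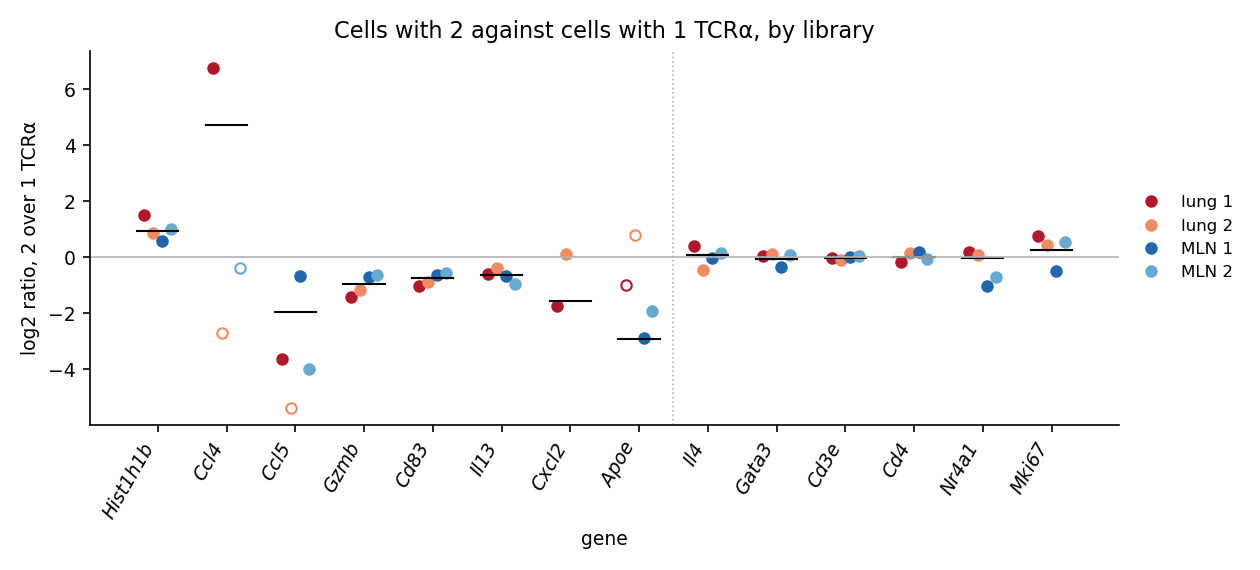
Log2 ratio of CPM in cells with 2 over cells with 1 TCRα for the 8 genes past the threshold (left of the dotted line) and 6 others, one point per library, with 0.5 counts added. Open points have a sum of 0 on one side, libraries at 0 on both sides are not drawn, and black bars give the fitted log2 fold change. Il13, Gzmb and Cd83 lie below 0 and Hist1h1b above 0 in 4 of 4 libraries, and Ccl4 is high in lung 1 alone.

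Genes that make or read out the TCR signal were then described. None of the 21 genes of the TCR complex and proximal signaling passed the threshold, which only 0.0824% of all tested genes did, and 2 of them had an unadjusted p below 0.05 (3.73% of all tested genes). Of the 21 genes 16 had a fitted log2 fold change above 0, with a median log2 fold change of 0.04 against -0.01 over all tested genes and a range from -0.07 to 0.21. Cd3e, a signaling subunit of the receptor, was at 940, 938, 1258 and 1309 CPM with 2 TCRα and at 961, 998, 1259 and 1274 CPM with 1. Cd4 was at 252, 281, 335 and 284 CPM against 286, 252, 294 and 299 CPM. Of the 22 genes of early activation and antigen response none passed either (median log2 fold change -0.04), and 5 had an unadjusted p below 0.05, again by edgeR. Among these 5, Egr1 (log2 fold change 0.27) and Egr3 (0.75) lay above 0, and Il2ra, Myc (-0.36) and Dusp1 (-0.23) below 0. Il2ra, a chain of the IL-2 receptor, was at 53.6, 64.9, 4.24 and 11.4 CPM against 91.2, 68.2, 16.4 and 7.82 CPM (log2 fold change -0.77, SE 0.20, adjusted p = 0.371 by edgeR).

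Of the 20 tested Th2 effector genes, 1 was lower, Il13, and 0 were higher (median -0.07). Of all tested genes 0.0618% were lower and 0.0206% higher. Il4 was at 563, 285, 400.1 and 349 CPM against 423, 393, 407 and 316 CPM, higher in 2 of 4 libraries. Gata3, the lineage factor of Th2 cells, was at 858, 844, 171 and 237 CPM against 832, 777, 218 and 224 CPM, with a log2 fold change of -0.05 (SE 0.07). The values of both genes overlapped between the kinds of cell. Il5, the eosinophil growth factor, was at 90.0 and 3.61 CPM in lung 1 and lung 2 against 84.3 and 35.1 CPM.

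The other lists gave 1 further call. Of the 12 tested innate-like and NKT genes, 1 was lower, Ccl5 (median log2 fold change -0.29). Among all tested genes 0.0618% were called lower and 0.0824% passed in either direction. None passed among 12 follicular helper genes (median 0.10), 12 recirculation genes (0.07), 16 interferon response genes (-0.18), 18 cell cycle genes (0.12) and 7 tested genes of TCR gene assembly (-0.17). An unadjusted p below 0.05 by edgeR was seen for 1, 1, 5, 2 and 0 of these genes, in the same order. It was seen for 3 of 12 innate-like and NKT genes and 3 of 20 Th2 effector genes. Among all tested genes the share was 3.73%. Of the 18 cell cycle genes 16 had a fitted log2 fold change above 0, as had 48.5% of all tested genes. The libraries differed, with 15, 13, 0 and 15 of the 18 genes above 0. In MLN 1, which had the most cells, all 18 were lower with 2 TCRα, among them Mki67 at 45.7 against 64.7 CPM and Hmgb2 at 710 against 794 CPM. Of the 16 interferon response genes 15 had a fitted value below 0, and in the single libraries 5, 2, 7 and 3 of them were above 0. The RNA of Rag1, Rag2 and Dntt, the enzymes that cut and extend TCR segments, was not detected in any of the 8 sums.

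Whether the difference between the 2 kinds of cell was itself different in lung and MLN was tested by the interaction of edgeR. No gene of 9707 passed (0%), with 344 (3.54%) at an unadjusted p below 0.05, and DESeq2 gave 0 as well. The lowest adjusted p was 0.116 for Ccl1, a ligand of Ccr8, at 211, 159, 1.41 and 0 CPM with 2 TCRα and 201, 98.4, 14.8 and 0.301 CPM with 1. Nr4a1, an immediate target of TCR signaling, was at 1084, 790, 17.4 and 12.98 CPM with 2 TCRα and 946, 741, 35.6 and 22.6 CPM with 1 (difference of log2 fold changes 1.10, SE 0.21, edgeR adjusted p = 0.214). It was thus higher with 2 TCRα in both lung libraries and lower in both MLN libraries. The count was 24 without lung 2, 4 without lung 1, 2 without MLN 1 and 0 without MLN 2, and Nr4a1 was among the genes that passed without lung 2 (edgeR adjusted p = 0.00630). With a library left out, its organ is represented by 1 library, which is assumed to vary like the others.

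Ier3, an early response gene, was at 146, 32.5, 0 and 0 CPM with 2 TCRα against 48.0, 17.4, 2.95 and 1.504 CPM, with an adjusted p of 0.192 for the organ difference (edgeR). Of its 161 UMIs in lung 1, 1 cell held 87.0%. The adjusted p of the other genes with the lowest values by edgeR was 0.444 for Plac8, 0.558 for Cd9, 0.659 for Pdcd1 and 1 for Gm42418, Vdr and Lars2.

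Lung and MLN cells with 2 TCRα differed from each other in many genes. Values in cells with 1 TCRα stand beside those of Areg and Id3. Of 7344 genes tested by edgeR, 1091 (14.9%) passed, 690 (9.4%) higher and 401 (5.46%) lower in lung, with 2 libraries in each group, and 1997 (27.2%) had an unadjusted p below 0.05. The count was 404 without lung 1 and 566 without MLN 1, and 848 and 1084 without lung 2 and MLN 2.

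Genes are named here among those with a mean of at least 50 CPM and no sum of 0, a limit that leaves out called genes with larger fitted changes, such as Calca, Ier3 and Cxcl2. Areg, an epidermal growth factor receptor ligand of tissue repair, was higher in lung, at 1227 and 444 CPM in lung 1 and lung 2 against 4.24 and 6.49 CPM in MLN 1 and MLN 2. In cells with 1 TCRα it was at 1469 and 428 against 8.399 and 2.71 CPM. With 2 TCRα its log2 fold change was 7.60 (SE 0.57, edgeR adjusted p = 2.81e-06). Fgl2 (6.78), Fosl2 (6.76), Ccr8 (6.39) and Lilr4b (6.00) followed among the genes within this limit. On the MLN side Id3, an inhibitor of E proteins, was at 11.8 and 10.8 CPM in lung against 381 and 367 CPM in MLN (log2 fold change -4.88, SE 0.24, edgeR adjusted p = 1.18e-07), beside Art2b (-5.13), Ephx1 (-4.27), Tox2 (-3.22) and Dennd2d (-3.18). With 1 TCRα, Id3 was at 10.1 and 16.5 CPM in lung against 347 and 358 CPM in MLN. For Art2b the log2 fold change was -3.42 without lung 1 and -6.71 without lung 2. Without lung 1 it was 6.50 for Areg, 5.87 for Fosl2 and -3.52 for Ephx1, and without MLN 1 it was 5.84 for Fgl2, 5.89 for Fosl2 and 5.16 for Lilr4b.

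Against 9.4% of all tested genes higher and 5.46% lower in lung, the lists were as follows. In cells with 2 TCRα, 13 of 18 tested Th2 effector genes were higher in lung and 0 lower, among them Gata3 and Il13, whereas Il4 did not pass (log2 fold change 0.36, SE 0.25). Of 22 early activation genes 18 were higher, including Nr4a1 and Junb, and Egr2 was lower. Only the lungs were digested, and the part of this step in these values was not tested. Follicular helper genes were lower in lung in 10 of 11, including Cxcr5 and Bcl6, the receptor and the transcription factor that define this state. Among recirculation genes 6 of 12 were higher, including Ccr7, S1pr1 and Klf2, and Tcf7, Lef1 and Cd27 were lower.

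Set against the same shares of all tested genes (9.4% higher, 5.46% lower), 8 of 13 tested interferon response genes were lower in lung, including Isg15, and of 18 cell cycle genes 8 were higher, including Mki67 and Top2a. In the TCR complex and proximal signaling list 6 of 21 were lower, Cd3d, Cd247, Lck, Plcg1, Ptprc and Csk. Of 5 innate-like genes Ifng and Nkg7 were higher and Cd160 lower, and none of 6 genes of TCR gene assembly passed. The median log2 fold change was 2.32 for the Th2 effector, 2.15 for the early activation, -2.41 for the follicular helper, 0.31 for the recirculation, -1.47 for the interferon response, 0.85 for the cell cycle, -0.05 for the TCR complex, 0.14 for the innate-like and -0.17 for the TCR gene assembly list, against -0.01 for all tested genes.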

How the data were processed

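For lung and MLN, the authors deposited counts of UMIs per gene and barcode, made with Cell Ranger 3.0.1 (mkfastq of 2.1.1) on mm10 by combining 2 sequencing runs per library, and counts of UMIs per TCR contig. The medLN and MLN run was not used here.

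UMIs were summed per library and kind of cell (8 sums), TCR genes left out of tests and of CPM. Sums were tested with edgeR 4.0.16 (R 4.3.3; filterByExpr, TMM, quasi-likelihood, Benjamini-Hochberg over all tested genes) with library as a term, lung against MLN without a block. Differences per library were tested by exact sign-flip permutation, two-sided. DESeq2 1.42.0 and the other settings named at the end were alternatives. Segments were located with GENCODE annotation of GRCm38, which matches mm10. The edgeR fits were tested on simulated data with 200 genes changed by a log2 of 1.5 and recovered 96% (7 false calls), 49% for the organ difference (6) and 84.9% for lung against MLN (8). The simulation gave all genes the same dispersion and changed only genes with higher counts. It held no genes carried by single cells, so it cannot show how the fits treat such genes.

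The members, gene lists and tests were chosen with earlier results of these data known. Named genes were those with the largest change past the threshold, a mean of 20 CPM (50 for lung against MLN) and the same sign in all libraries, or else the lowest p, and list genes of highest level, while list genes named for their role were picked with their values in view. A few genes that these rules name are not reported here. The check for pairing used the deviations of same-numbered libraries from their organ mean, in cells with 2 TCRα. These deviations had a correlation of 0.0487 over 7344 genes. Same-numbered libraries come from the same mouse and shared 115 and 28 TCRβ, other pairs of libraries 2 to 9. Libraries shared 23 barcodes, 9 of them of cells with 2 TCRα, with 0 TCRβ in common. Scrublet (scanpy 1.11.5) called 17 cells (0.286%), too few to count as working, so doublets were not removed. Another 37 productive contigs of mixed chain type were not counted.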

Additional observations from a re-analysis of the deposited data

How the results depend on the processing

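Results rest on 2 mice and on sums from as few as 36 cells, and 4 libraries cannot give a sign-flip p below 0.13. Genes detected in few cells were decided by single cells. Requiring at least 3 UMIs of the second TCRα lowered its share to 8.32%, 5.29%, 11.9% and 9.42% in lung 1, lung 2, MLN 1 and MLN 2. Thinned to 2000 UMIs, the log2 ratio of genes per cell was -0.00071. The count of genes differing between cells with 2 and 1 TCRα was 8, and 1 with the DESeq2 Wald test, 39 with no low-count filter, 3 after thinning, 5 without cells with 1 TCRα that share a TCRβ with a cell with 2, and 1 to 34 with 1 library left out. The same count was 0 with no replicate block (library left out of the model), and Il13, Hist1h1b, Gzmb, Cd83, Ccl5 and Cxcl2 then no longer passed. Over all alternatives run, the result was weaker in 8 and the same in 7 for Il13, and likewise for Gzmb. It was weaker in 12 and the same in 3 for Cd83, and weaker in 7 and the same in 8 for Ccl5. Adding the mouse as a replicate block moved the count for lung against MLN from 1091 to 1470. For the organ difference the counts were 19 with no low-count filter, 3 without the cells sharing a TCRβ, and 0 to 24 with 1 library left out. For lung against MLN they were 444 with the DESeq2 Wald test, 575 after thinning, and 404 to 1084 with 1 library left out. Ier3 with 2 against 1 TCRα had a log2 fold change of 1.22 (not past the threshold), and -0.62 with DESeq2, -1.56 with at least 3 UMIs of the second TCRα and -0.41 to 1.47 with 1 library left out, the lowest without lung 1. Cxcl2 had 0.32 with DESeq2 and -1.76 to 0.023 with 1 library left out, the highest without lung 1. For the organ difference Cd9 had -0.033 (without lung 1) to 2.66 with 1 library left out. The difference in clone membership kept its direction under the alternatives run, and was 2.65 to 5.48 percentage points with 1 library left out. The cause of these changes was not tested.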
